A study of Mus musculus with 6 samples.

Results

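The genes described here are 39 endogenous genes of the mouse pluripotency network and of the stages of reprogramming, out of 54331 genes in the deposited table. They were taken by symbol, as 18 transcription factors, 7 developmental pluripotency-associated and chromatin factors, 3 RNA regulators of the LIN28 and TRIM71 kind, 6 genes of Nodal and FGF signaling and 5 surface, enzyme and signaling stage markers. The transduced factors *Pou5f1*, *Sox2* and *Klf4* were left out. Their RNA was measured by polyA RNA sequencing at 10 days post infection (dpi) in 6 wells of reprogramming mouse embryonic fibroblasts (MEFs), 3 wells in the OSKA − 4OHT group and 3 wells in the OSKA + 4OHT group. The MEFs were mixed from several male E13.5 embryos on a mixed background of C57BL/6, DBA/2 and ICR, and carried a transgene that expresses EGFP from the *Oct4* promoter and enhancer. Both groups had received retroviruses for Oct4, Sox2 and Klf4 (OSK) and for AKT-MER (A), a fusion of myristoylated AKT with a modified estrogen receptor whose ligand is 4-hydroxytamoxifen (4OHT). From 3 dpi the OSKA + 4OHT wells were given 1 µM 4OHT, which activates AKT, and the OSKA − 4OHT wells were given ethanol. No library of cells without AKT-MER was analysed here, so that an effect of 4OHT alone and an effect of AKT activation cannot be told apart. The wells were plated from transduced cells on the same plate, and p-values therefore measure the spread between wells, which may be technical.

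Embryonic stem cells keep their undifferentiated state through a network of transcription factors that bind each other's genes, with NANOG, ESRRB and the Kruppel-like factors acting beside OCT4 and SOX2. When fibroblasts are reprogrammed with retroviral factors, the fibroblast program is lost and epithelial genes are switched on before the endogenous network is, and alkaline phosphatase and the SSEA-1 epitope appear before endogenous *Nanog*. Nodal signaling, its coreceptor CRIPTO and its LEFTY inhibitors are active in pluripotent cells, and proteins such as LIN28A, DPPA5A and L1TD1 bind RNA in them.

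Values are TPM, transcripts scaled to a common library total, and are relative to transcript length as well, so that levels of different genes can be set side by side. Between 15814 and 18230 genes were above 0 in a library. An approximate depth, read from the steps of genes with a single transcript, ranged from 0.488 to 1 relative to the deepest library, and 1 TPM of a transcript of 2000 bases corresponded to about 1.46 to 2.99 reads. OSKA − 4OHT replicates 1 and 3 had the shallowest libraries, at 0.488 and 0.545. Low values of the network genes thus rest on few reads, and a value of 0 is given as listed at 0. Wells of a group correlated by 0.809 to 0.864 across genes, and genes are not independent replicates. *Akt1* was at 653 to 751 TPM in the OSKA − 4OHT group and at 448 to 642 TPM in the OSKA + 4OHT group, with no separate row for AKT-MER. The ligand acts on the protein, so this level does not check the labels. Of 16 fibroblast markers, 16 were detected and 0 were at 0 in every library. Their summed level was 5355 to 6077 TPM in the OSKA − 4OHT group and 3258 to 3442 TPM in the OSKA + 4OHT group. In these bulk samples, fewer cells of a type and less RNA per cell cannot be told apart.

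More RNA of the network genes was present in the OSKA + 4OHT group. The summed level of the 39 genes was 188.7, 189.2 and 164.9 TPM in OSKA − 4OHT replicates 1, 2 and 3, and 523, 589 and 441 TPM in OSKA + 4OHT replicates 1, 2 and 3. Without *L1td1*, the most abundant of them, the sums were 115.9 to 134.5 TPM and 261 to 385 TPM. The number of network genes above 0 was 23, 27 and 24 in the OSKA − 4OHT wells and 34, 35 and 33 in the OSKA + 4OHT wells, and the number at 10 TPM or more was 6, 6 and 4 against 13, 12 and 10. Over all genes, the number above 0 was 15814, 17692 and 16906 against 18147, 18230 and 17578. A count above 0 depends on depth, and OSKA − 4OHT replicates 1 and 3 had the shallowest libraries. In 23 of the 36 genes that were above 0 in any library, the lowest OSKA + 4OHT well exceeded the highest OSKA − 4OHT well, and this held for 13.2% of all 24191 genes above 0. The reverse order was seen for 1 gene, *Fut4*, and for 7.02% of all genes. The groups overlapped in 12 genes, and 3 genes (*Prdm14*, *Dppa3* and *Tcl1*) were listed at 0 in all 6 libraries.

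**Figure D1:**
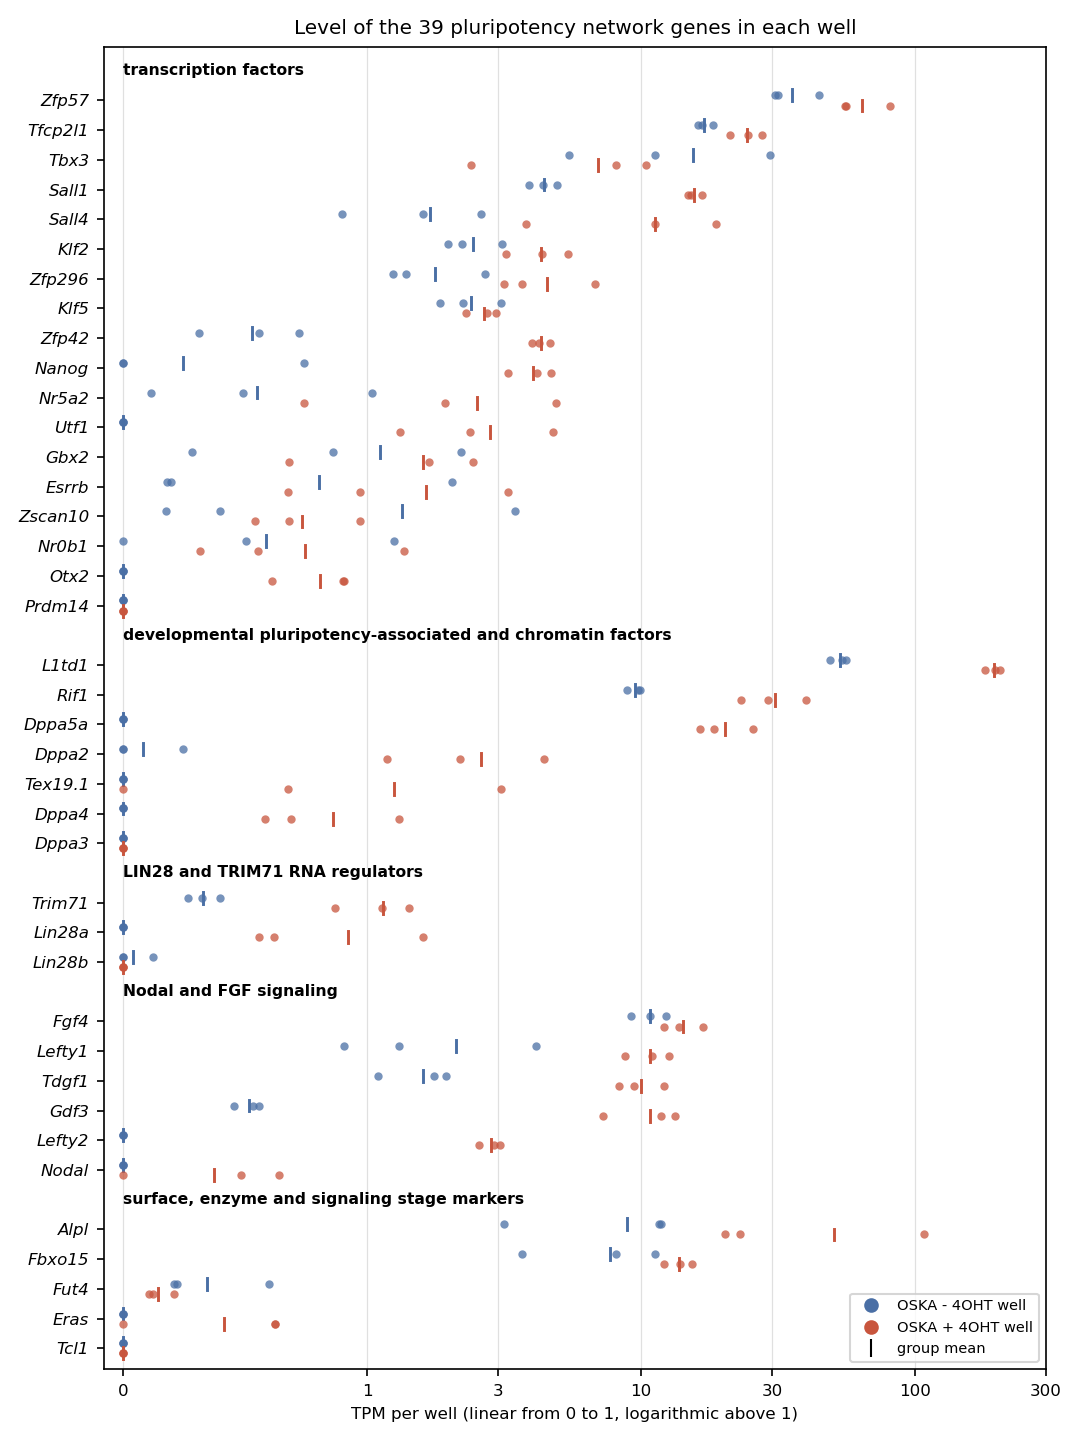
TPM of each of the 39 genes in each well, grouped by role, with OSKA − 4OHT wells in blue, OSKA + 4OHT wells in red and a vertical bar at each group mean; the axis is linear from 0 to 1 TPM and logarithmic above. The red points lie wholly above the blue ones in 23 genes, and *L1td1* is the most abundant gene in both groups.

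The test was limma-trend on log2(TPM + 0.5), run on all 15382 genes whose mean over the 6 libraries reached 1 TPM. Calls required a Benjamini-Hochberg adjusted p under 0.05 together with a log2 fold change beyond 1 in either direction. Of the 39 genes, 26 passed the filter and 13 were below it. Of these 26, 9 were called higher in the OSKA + 4OHT group, namely *Nanog*, *Zfp42*, *Sall1*, *Dppa5a*, *L1td1*, *Rif1*, *Tdgf1*, *Gdf3* and *Lefty2*, and 2.87% of all tested genes were called higher. None of the 26 was called lower by limma-trend, with 0 at an unadjusted p under 0.05 in that direction, and 1.37% of all tested genes were called lower. However, 9 of the 26 genes had an OSKA − 4OHT mean under 1 TPM and passed the filter only through the OSKA + 4OHT wells, so that they had to differ: *Nanog*, *Zfp42*, *Esrrb*, *Nr5a2*, *Utf1*, *Dppa2*, *Dppa5a*, *Gdf3* and *Lefty2*. Among the 17 genes with an OSKA − 4OHT mean of at least 1 TPM, which does not depend on the OSKA + 4OHT wells, 4 were called higher (*Sall1*, *L1td1*, *Rif1* and *Tdgf1*) and 0 were called lower. Their median log2 fold change was 0.92, against 0.09 over all 14298 tested genes with the same minimum, 2.54% of which were called higher. Over all 15382 genes tested, the log2 fold change had a median of 0.14, which is not subtracted from the values below.

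**Figure D2:**
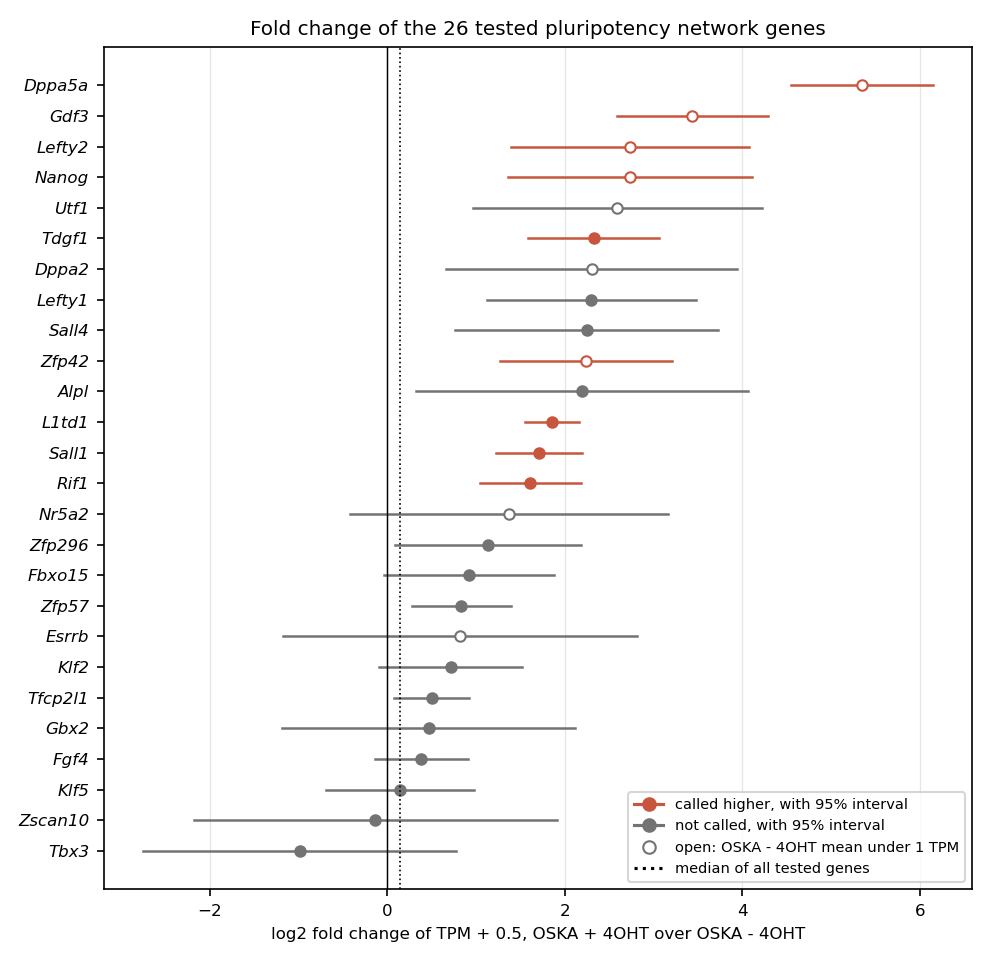
Log2 fold change of TPM + 0.5 between OSKA + 4OHT and OSKA − 4OHT for the 26 tested genes, with 95% intervals from limma-trend; red marks the 9 called genes, open symbols the genes with an OSKA − 4OHT mean under 1 TPM, whose fitted values depend on the pseudocount, and the dotted line the median of all tested genes, 0.14. The intervals of *Tbx3*, *Zscan10*, *Klf5*, *Fgf4*, *Gbx2*, *Klf2*, *Esrrb*, *Fbxo15* and *Nr5a2* include 0.

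Promoter sequences are shown for those called genes that the RefSeq promoter table (GRCm38.p6) held, because the transduced OCT4, SOX2 and KLF4 bind DNA. Of the 39 genes, 26 were in the table with 37 start sites, and 5 of the 9 called genes were among them. The lines below give, 5′ to 3′ on the strand of the gene, the 250 bases before the most upstream start site, at chr6:122707239-122707488 (plus strand) for *Nanog*, chr8:43307010-43307259 (minus strand) for *Zfp42*, chr8:89044163-89044412 (minus strand) for *Sall1*, chr4:98726504-98726753 (plus strand) for *L1td1* and chr9:110946159-110946408 (minus strand) for *Tdgf1*. Capitals mark matches, on either strand, to the letters ATGCAAAT (the octamer bound by OCT4), ACAATGG (a SOX core), AAGGTCA (an ESRRB half-site), CCACACCC (a CACCC element of Kruppel-like factors) and GGGCGG (a GC box), and to TTGCAT followed after any single base by ACAATG, which is an octamer part and a SOX core side by side. This last pattern was added after the *Nanog* sequence had been read.
Nanog: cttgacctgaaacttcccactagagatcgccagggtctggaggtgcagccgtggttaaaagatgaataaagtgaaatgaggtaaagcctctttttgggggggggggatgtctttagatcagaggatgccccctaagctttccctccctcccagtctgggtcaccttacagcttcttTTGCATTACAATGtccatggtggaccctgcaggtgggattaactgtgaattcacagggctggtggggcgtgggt
Zfp42: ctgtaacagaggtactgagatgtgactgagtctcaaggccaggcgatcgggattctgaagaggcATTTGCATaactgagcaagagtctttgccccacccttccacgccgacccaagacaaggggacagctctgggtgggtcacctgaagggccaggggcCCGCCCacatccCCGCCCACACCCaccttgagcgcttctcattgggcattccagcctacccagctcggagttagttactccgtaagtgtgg
Sall1: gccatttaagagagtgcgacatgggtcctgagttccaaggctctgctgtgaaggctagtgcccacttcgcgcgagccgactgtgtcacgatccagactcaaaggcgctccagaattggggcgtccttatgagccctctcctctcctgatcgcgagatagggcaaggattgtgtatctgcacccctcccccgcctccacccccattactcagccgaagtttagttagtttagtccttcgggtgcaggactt
L1td1: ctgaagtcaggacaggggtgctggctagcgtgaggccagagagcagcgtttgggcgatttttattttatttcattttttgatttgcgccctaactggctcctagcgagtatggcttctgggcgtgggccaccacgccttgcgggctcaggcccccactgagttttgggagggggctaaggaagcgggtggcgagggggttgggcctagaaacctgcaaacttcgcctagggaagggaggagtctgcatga
Tdgf1: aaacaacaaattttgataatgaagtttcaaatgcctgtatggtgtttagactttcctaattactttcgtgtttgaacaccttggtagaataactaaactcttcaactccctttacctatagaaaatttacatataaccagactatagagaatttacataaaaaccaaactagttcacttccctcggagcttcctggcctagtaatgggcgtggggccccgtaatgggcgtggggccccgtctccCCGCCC

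The *Nanog* sequence held the octamer part and SOX core side by side at bases -74 to -62 before its start, and 4 of all 32851 promoter windows of 300 bases held this pattern, both windows of *Nanog* included. The *Zfp42* sequence held the octamer at bases -186 to -179, a pair of GC boxes, and a CACCC element that overlaps a GC box. Of the 26 genes with a promoter, the octamer was found in *Zfp42* and *Zfp296* only, and it was in 1.74% of all windows. The SOX core was found in *Esrrb* (3.66% of all windows), the ESRRB half-site in *Zfp57* (4.72%) and the CACCC element in *Zfp42* (3.56%). A GC box was in 14 of the 37 windows (37.84%), close to the 35.66% of all windows. No searched letters were found in the sequences shown for *Sall1* and *L1td1*, although the other 2 windows of *Sall1* each held a GC box, and *Tdgf1* held a GC box next to its start. Of the 37 windows, 29.73% were rich in CpG and 32.43% poor in CpG, against 30.29% and 51.39% of all windows. CpG rich means an observed to expected CpG ratio of at least 0.6 with at least 55% GC, and CpG poor a ratio under 0.4. A match is a description of the letters and not a measured binding site.

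*L1td1*, which encodes an RNA-binding protein derived from a LINE-1 element, had the highest level of all 39 genes in both groups. It was at 54.3, 56.0 and 49.0 TPM in OSKA − 4OHT replicates 1, 2 and 3 against 196, 204 and 179.9 TPM in the same order in the OSKA + 4OHT group. The groups were far apart, with coefficients of variation of 6.9% and 6.3%. The mean rose 3.64-fold, from 53.1 ± 3.65 to 193 ± 12.2 TPM (SD, n = 3 wells each), with a log2 fold change of 1.85 (SE 0.125) and a limma-trend adjusted p of 0.00342. The lowest OSKA + 4OHT value rested on about 649 reads.

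*Dppa5a*, which encodes a KH domain RNA-binding protein of pluripotent cells, was listed at 0 in all 3 OSKA − 4OHT wells and was at 16.4, 25.7 and 18.5 TPM in the OSKA + 4OHT wells. Its adjusted p was 0.00328 (limma-trend). However, it passed the filter only through the OSKA + 4OHT wells and had to differ, so this p is no support. Its mean in the OSKA + 4OHT group was 20.2 ± 4.87 TPM (SD, n = 3 wells). Its transcript is short, and these values corresponded to only about 9.13, 14.6 and 9.13 reads. Along 417 bases it is 95.9% identical to *Pigp*, a gene of glycolipid anchor synthesis, which was at 59.9 to 83.3 TPM in the OSKA − 4OHT group and at 43.5 to 74.0 TPM in the OSKA + 4OHT group. Whether reads were divided between these genes was not tested.

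*Rif1*, a broadly expressed factor of replication timing and DNA repair, was at 8.89, 9.73 and 9.91 TPM in the OSKA − 4OHT wells and at 39.9, 29.1 and 23.2 TPM in the OSKA + 4OHT wells. All 3 OSKA + 4OHT wells were above the OSKA − 4OHT wells but they were more spread out, with a coefficient of variation of 27.4% against 5.7%. The mean rose 3.23-fold, with a log2 fold change of 1.61 (SE 0.236) and a limma-trend adjusted p of 0.0176. *Dppa2* and *Dppa4* encode SAP domain partners that act on bivalent and germline promoters. *Dppa2* was at 0, 0.244 and 0 TPM in the OSKA − 4OHT wells and at 4.43, 1.18 and 2.18 TPM in the OSKA + 4OHT wells, and its adjusted p was 0.117 (limma-trend). *Dppa4* was listed at 0 in all OSKA − 4OHT wells and was at 0.581, 1.31 and 0.689 TPM in the OSKA + 4OHT wells, below the filter. Both genes were above the OSKA − 4OHT wells in all 3 OSKA + 4OHT wells, on about 1 to 15 reads. *Tex19.1*, a germline and pluripotency gene that acts on retrotransposons, was above 0 only in OSKA + 4OHT replicates 1 and 2, at 3.08 and 0.674 TPM. *Dppa3*, which protects the maternal genome from demethylation, was listed at 0 throughout.

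Of the 18 transcription factors, 15 were tested and 3 were called higher (2.87% of all tested genes). *Nanog* and *Zfp42* passed the filter only through the OSKA + 4OHT wells, and *Sall1* did not depend on them. *Sall1*, a spalt-like zinc finger factor, was at 3.90, 4.40 and 4.95 TPM in the OSKA − 4OHT wells and at 15.2, 16.7 and 14.8 TPM in the OSKA + 4OHT wells. The groups were well separated, and the mean rose 3.52-fold from 4.42 ± 0.526 to 15.6 ± 0.966 TPM (SD, n = 3 wells each), with a log2 fold change of 1.71 (SE 0.200) and a limma-trend adjusted p of 0.00927. Its relative *Sall4*, a factor of the core network, was at 0.898, 2.61 and 1.60 TPM in the OSKA − 4OHT wells and at 11.2, 3.82 and 18.8 TPM in the OSKA + 4OHT wells. The groups did not overlap, but OSKA + 4OHT replicate 2 was close to the OSKA − 4OHT wells, and the log2 fold change of 2.25 (SE 0.616) did not pass (adjusted p of 0.096, limma-trend). It was 2.85 without that well and 1.77 without OSKA + 4OHT replicate 3, and it passed in neither fit.

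*Nanog*, the homeodomain factor that marks entry into naive pluripotency, was listed at 0 in OSKA − 4OHT replicates 1 and 3 and was at 0.740 TPM in replicate 2, the deepest library. It was at 4.68, 4.17 and 3.28 TPM in the OSKA + 4OHT wells, on about 13.9, 12.6 and 8.62 reads. No OSKA + 4OHT well was near the OSKA − 4OHT wells, and the adjusted p was 0.0481 (limma-trend). *Zfp42*, also known as *Rex1*, a marker of the naive state, was at 0.723, 0.310 and 0.558 TPM in the OSKA − 4OHT wells and at 4.23, 4.67 and 3.99 TPM in the OSKA + 4OHT wells. The OSKA − 4OHT values correspond to about 1 read each, so no fold is given, and the adjusted p was 0.0320 (limma-trend). *Utf1*, a chromatin-associated factor of undifferentiated cells, was listed at 0 in all OSKA − 4OHT wells and was at 1.32, 2.37 and 4.76 TPM in the OSKA + 4OHT wells, with an adjusted p of 0.0830. The homeobox gene *Otx2*, known from the formative and primed states, was likewise listed at 0 in the OSKA − 4OHT wells and was at 0.611, 0.903 and 0.904 TPM in the OSKA + 4OHT wells, below the filter.

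Several factors of the naive network were already transcribed in the OSKA − 4OHT group and were not called. *Zfp57*, a KRAB zinc finger gene that keeps methylation at imprinted regions, was at 31.6, 44.6 and 30.8 TPM in the OSKA − 4OHT wells and at 80.9, 55.6 and 55.9 TPM in the OSKA + 4OHT wells. The groups did not overlap and the ratio of means was 1.80, but the log2 fold change of 0.84 (SE 0.231) was not called (adjusted p of 0.0983, limma-trend). *Tfcp2l1*, a target of LIF-STAT3 signaling, was at 16.1, 16.7 and 18.3 TPM against 24.5, 27.7 and 21.1 TPM. This is a ratio of 1.43 without overlap, and the 95% interval of its log2 fold change was 0.08 to 0.93 (adjusted p of 0.173). *Klf2*, a Kruppel-like factor, was at 3.10, 1.97 and 2.23 TPM against 4.34, 5.42 and 3.22 TPM, also without overlap (adjusted p of 0.289). *Klf5*, which is expressed in epithelia too, was at 1.85, 2.24 and 3.08 TPM against 2.29, 2.97 and 2.73 TPM. Its wells overlapped, and the 95% interval of its log2 fold change on the log2(TPM + 0.5) scale was -0.68 to 0.98. Quantile normalization turned its sign, from 0.15 to -0.12. The zinc finger gene *Zfp296* was at 1.25, 2.70 and 1.38 TPM against 3.68, 6.80 and 3.15 TPM without overlap (adjusted p of 0.205).

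The remaining factors were low or variable, and none of them was called. *Esrrb*, the orphan nuclear receptor of the naive network, was at 0.195, 0.177 and 2.04 TPM in the OSKA − 4OHT wells and at 0.973, 3.28 and 0.675 TPM in the OSKA + 4OHT wells. OSKA − 4OHT replicate 3 was above 2 of the 3 OSKA + 4OHT wells, and the adjusted p was 0.609 (limma-trend). *Nr5a2*, a nuclear receptor that can replace Oct4 in reprogramming, was at 0.490, 0.115 and 1.04 TPM against 1.93, 0.743 and 4.91 TPM, with an overlap (adjusted p of 0.353). *Tbx3*, a T-box factor, was at 29.5, 11.2 and 5.45 TPM against 10.4, 8.07 and 2.40 TPM. It had the lowest log2 fold change of the tested genes, -0.98, but its groups overlapped and the interval ran from -2.75 to 0.78 (adjusted p of 0.508). Leaving out a well moved it between -0.37, without OSKA − 4OHT replicate 1, and -1.54, without OSKA − 4OHT replicate 3. *Gbx2*, a homeobox gene downstream of LIF-STAT3, was at 0.283 to 2.19 TPM against 0.681 to 2.43 TPM, and *Nr0b1*, also known as *Dax1*, at 0 to 1.25 TPM against 0.315 to 1.37 TPM. *Zscan10*, another zinc finger gene, was at 3.47 TPM in OSKA − 4OHT replicate 1 and between 0.174 and 0.973 TPM in the other 5 wells, and it passed the filter only through that well. *Prdm14*, which represses FGF signaling and DNA methyltransferases in stem cells, was listed at 0 in every library.

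Of the 6 signaling genes, 5 of which belong to the Nodal branch, 5 were tested and 3 were called higher (2.87% of all tested genes). Of these 3, *Gdf3* and *Lefty2* passed the filter only through the OSKA + 4OHT wells, and *Tdgf1* did not depend on them. *Tdgf1*, which encodes the Nodal coreceptor CRIPTO, was at 1.95, 1.76 and 1.10 TPM in the OSKA − 4OHT wells and at 8.33, 12.2 and 9.46 TPM in the OSKA + 4OHT wells. The groups were far apart, with means of 1.60 ± 0.447 and 9.99 ± 1.97 TPM (SD, n = 3 wells each) and an adjusted p of 0.0128 (limma-trend). The ligand gene *Gdf3* was at 0.556, 0.533 and 0.456 TPM in the OSKA − 4OHT wells, on fewer than 3 reads each, and at 11.8, 13.3 and 7.25 TPM in the OSKA + 4OHT wells, on about 18.2 to 38.5 reads (adjusted p of 0.00616, limma-trend). *Nodal* itself was listed at 0 in the OSKA − 4OHT wells and in OSKA + 4OHT replicate 1, and was at 0.637 and 0.482 TPM in the other two OSKA + 4OHT wells. The secreted inhibitor *Lefty2* was listed at 0 in all OSKA − 4OHT wells and was at 3.05, 2.91 and 2.57 TPM in the OSKA + 4OHT wells (adjusted p of 0.0448, limma-trend). Its relative *Lefty1* was at 1.30, 4.14 and 0.904 TPM against 11.0, 12.7 and 8.73 TPM. These groups did not overlap either, and the adjusted p of 0.0502 (limma-trend) lay just outside the threshold. The transcripts of *Lefty1* and *Lefty2* are 91.4% identical along 1157 bases, so that the division of reads between them is uncertain. *Fgf4*, the FGF ligand of embryonic stem cells, was at 10.8, 12.3 and 9.18 TPM against 16.8, 13.8 and 12.1 TPM, with an overlap. Its log2 fold change was 0.39 with a 95% interval of -0.13 to 0.91 (adjusted p of 0.366, limma-trend).

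The 3 RNA regulators were all below the filter. *Lin28a*, whose protein blocks maturation of the let-7 microRNAs, was listed at 0 in the OSKA − 4OHT wells and was at 1.60, 0.555 and 0.620 TPM in the OSKA + 4OHT wells, on about 2.70 to 7.85 reads. Its paralog *Lin28b* was above 0 only in OSKA − 4OHT replicate 2, at 0.121 TPM. *Trim71*, a let-7 target that encodes an RNA-binding ubiquitin ligase, was at 0.265, 0.322 and 0.398 TPM against 1.43, 1.13 and 0.871 TPM. The groups of *Lin28a* and *Trim71* did not overlap.

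Of the stage markers, *Alpl*, which encodes the alkaline phosphatase used to stain early reprogramming colonies, was at 11.6, 3.17 and 11.9 TPM in the OSKA − 4OHT wells and at 22.9, 108 and 20.2 TPM in the OSKA + 4OHT wells. The groups did not overlap, but OSKA + 4OHT replicate 2 lay far above the other two wells, and the log2 fold change of 2.19 (SE 0.776) did not pass (adjusted p of 0.174, limma-trend). Without that well it was 1.43 (adjusted p of 0.328). *Fbxo15*, an F-box gene used as a reporter of reprogramming, was at 3.68, 11.2 and 8.12 TPM against 15.4, 13.8 and 12.1 TPM, without overlap (adjusted p of 0.251). *Fut4*, the fucosyltransferase gene of the SSEA-1 epitope, was at 0.220, 0.207 and 0.599 TPM against 0.206, 0.104 and 0.123 TPM. All of these *Fut4* values correspond to at most about 2.13 reads, and its order of groups is not detectable at this depth. *Eras*, a Ras-like gene whose protein activates PI3K, was above 0 only in OSKA + 4OHT replicates 1 and 2, at 0.622 and 0.624 TPM, which is about 1 read each. *Tcl1*, which encodes a coactivator of AKT, was listed at 0 in every library.

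The calls differed in how often they held. Of the 9 called genes, *Dppa5a*, *Gdf3*, *Nanog*, *Zfp42* and *Lefty2* passed the filter only through the OSKA + 4OHT wells and had to differ, so the number of fits that call them is a description and no support. *L1td1* and *Dppa5a* were called in each of the 6 fits that left out a well, with adjusted p of 0.0111 to 0.0240 and 0.0115 to 0.0240. *Gdf3* and *Sall1* were called in 4 of these fits and lost their call without OSKA + 4OHT replicate 1 or 2, where their adjusted p reached 0.0556 and 0.0564. *Tdgf1* was called in 3 and lost its call whichever OSKA + 4OHT well was left out (up to 0.0706), and *Rif1* was called only in the fit without OSKA + 4OHT replicate 3 (0.0312 in that fit, up to 0.0758 in the others). *Zfp42*, *Nanog* and *Lefty2* were called in 0 of the 6 fits, with adjusted p of 0.0592 to 0.144, 0.0576 to 0.186 and 0.0815 to 0.190. Their direction was the same in every fit, but they had to be higher in the OSKA + 4OHT group, so this is no support either. *Nanog* also lost its call with a pseudocount of 0.1, *Nanog* and *Zfp42* without the filter on low genes, and all 3 under quantile normalization. *Lefty1*, in contrast, was called without OSKA − 4OHT replicate 2, its highest OSKA − 4OHT well (adjusted p of 0.0285), and in none of the other 5 fits (all with limma-trend). It was also called with a pseudocount of 2 (adjusted p of 0.0440), and *Utf1* was called by limma without a trend (adjusted p of 0.0323).

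**Figure D3:**
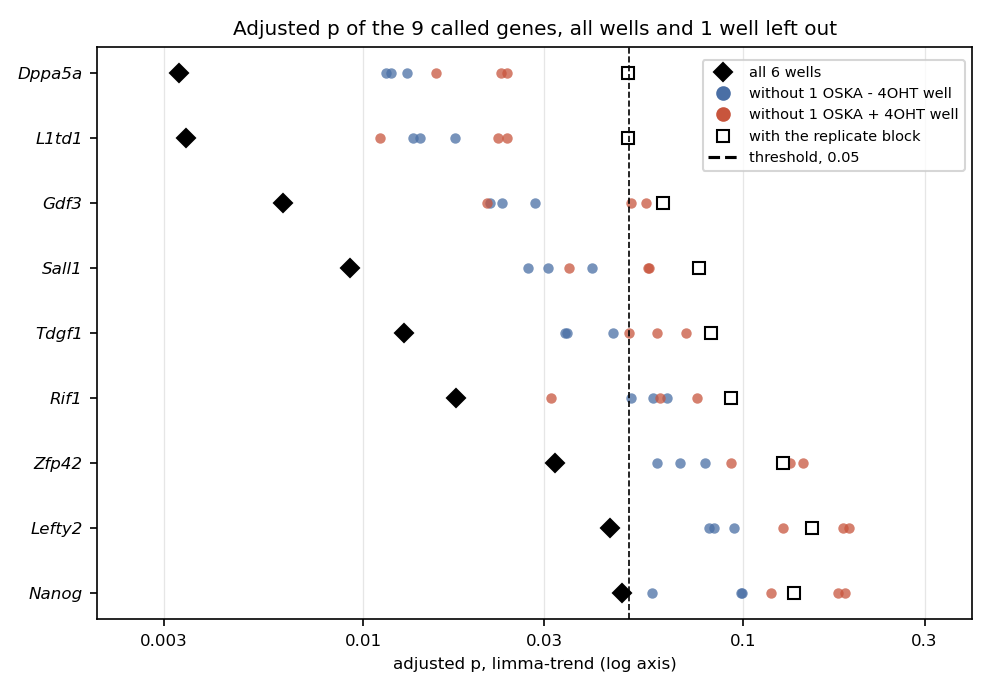
Adjusted p (log axis) of the 9 called genes from limma-trend with all 6 wells (diamonds), with 1 OSKA − 4OHT well left out (blue), with 1 OSKA + 4OHT well left out (red) and with the replicate number as a block (squares); the dashed line is the threshold of 0.05. Only *Dppa5a* and *L1td1* stay on the left of the line in all of these fits.

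Several network genes lie next to each other in the genome, and their neighbors were measured in the same fit. On chromosome 6, *Gdf3*, *Dppa3* and *Nanog* lie within 109231 bases (GENCODE M21, GRCm38). In this cluster *Gdf3* and *Nanog* were called higher while *Dppa3*, between them, was listed at 0. The adjacent *Apobec1*, an RNA-editing deaminase gene, was at 15.6, 11.0 and 11.8 TPM in the OSKA − 4OHT wells and at 52.7, 47.1 and 37.2 TPM in the OSKA + 4OHT wells, and was called higher (log2 fold change of 1.79, adjusted p of 0.0106, limma-trend). *Slc2a3*, a glucose transporter gene on the other side of *Nanog*, was at 19.4 to 40.2 TPM against 54.9 to 80.8 TPM, without overlap (adjusted p of 0.0690). *Mfap5*, farther away, had a log2 fold change of 0.05 and its wells overlapped. On chromosome 1, *Lefty2* and *Lefty1* lie within 45293 bases. The neighbors *H3f3a*, *Sde2*, *Tmem63a* and *Ephx1* had log2 fold changes between 0.02 and 0.38, and none was called. The protein-coding neighbor of *Dppa4* and *Dppa2* on chromosome 16, *Gm5485*, was listed at 0 in every library.

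The pathways that act on the network were read from lists of genes in the same fit, in which 2.87% of all tested genes were called higher and 1.37% lower. Genes named here other than the member of a list with the largest called rise or fall were chosen after their values were seen. In the LIF-JAK-STAT3 pathway, which sustains naive cells, 0 of 12 tested genes were called higher and 1 was called lower. This was *Pim1*, a kinase gene induced by STAT3, at 50.4, 36.3 and 29.5 TPM in the OSKA − 4OHT wells and at 7.06, 2.91 and 3.14 TPM in the OSKA + 4OHT wells (log2 fold change of -3.07, adjusted p of 0.0110, limma-trend). In the FGF-ERK pathway, 0 of 15 were called higher and 2 lower, *Etv4* and *Dusp4*, both induced by ERK. *Etv4* was at 20.8 to 27.6 TPM against 8.19 to 12.1 TPM (log2 fold change of -1.25, adjusted p of 0.0298, limma-trend). In the Nodal pathway beyond the network genes, 0 of 12 were called higher and 1 lower, *Skil*, a feedback inhibitor of SMAD signaling, at 43.8 to 64.4 TPM against 16.5 to 19.0 TPM (log2 fold change of -1.55). *Foxh1*, the SMAD partner of Nodal responses, was at 0, 0.354 and 0 TPM against 4.65, 2.66 and 2.60 TPM, with an adjusted p of 0.0533 (limma-trend). Its OSKA − 4OHT mean was under 1 TPM, so it passed the filter only through the OSKA + 4OHT wells and had to differ. At an unadjusted p under 0.05, limma-trend gave 0, 3 and 1 higher and 4, 4 and 2 lower genes in these 3 pathways. The 1 higher gene of the Nodal pathway was *Foxh1*. In the LIN28-let-7 axis 0 of 12 tested genes were called in either direction (0 higher and 1 lower at an unadjusted p under 0.05).

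Of 30 further genes known from embryonic stem cells, 22 were tested, and 2 were called higher and 0 lower, with 5 higher and 1 lower at an unadjusted p under 0.05. *Mybl2*, a cell cycle transcription factor, was at 4.13, 5.96 and 3.01 TPM in the OSKA − 4OHT wells and at 54.8, 58.2 and 49.5 TPM in the OSKA + 4OHT wells (log2 fold change of 3.53, adjusted p of 0.00361, limma-trend). The other was *Mycn*, at 0.551 to 1.23 TPM against 4.51 to 5.51 TPM. Its OSKA − 4OHT mean was under 1 TPM, so it passed the filter only through the OSKA + 4OHT wells and had to differ. The same held for *Tet1*, among the 5 higher at an unadjusted p under 0.05 (limma-trend). Of 18 genes of the primed state and of early lineages, 13 were above 0 in some library and 4 were tested. Of these 4, 0 were called (1 higher and 0 lower at an unadjusted p under 0.05, limma-trend). The 1 higher gene, *Dnmt3b*, likewise passed the filter only through the OSKA + 4OHT wells. Of the 18, 5 (*Fgf8*, *Mixl1*, *Cdx2*, *Cer1* and *T*) were listed at 0 in every library.

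Markers of other cell types were read in the same fit, and most of them did not pass in either direction. The shares over all tested genes were again 2.87% called higher and 1.37% called lower. Of 15 tested markers of the mesenchymal to epithelial transition, an early step of fibroblast reprogramming, 4 were called higher (*Krt8*, *Cdh1*, *Cd24a* and *Epcam*) and 0 lower (7 higher and 0 lower at an unadjusted p under 0.05, limma-trend), and the summed level of the 16 listed was 276 to 380 TPM in the OSKA − 4OHT group and 782 to 817 TPM in the OSKA + 4OHT group. *Krt8*, an epithelial keratin gene, was at 7.34, 6.11 and 19.2 TPM against 53.2, 59.7 and 54.1 TPM. Of 16 fibroblast markers, 2 were called lower, *Pdgfrb* and *S100a4*, and 0 higher (8 lower and 1 higher at an unadjusted p under 0.05, limma-trend). *Pdgfrb*, a growth factor receptor gene, was at 22.1 to 27.8 TPM against 6.15 to 8.21 TPM (log2 fold change of -1.65). Of 7 tested trophoblast and primitive endoderm markers, 2 were called higher, *Lama1*, a laminin gene, at 4.24 to 4.61 TPM against 15.6 to 24.3 TPM, and *Tfap2a*. At an unadjusted p under 0.05, limma-trend gave 4 higher and 0 lower of these 7. Whether *Cdh1*, *Cd24a*, *Epcam* and *Tfap2a* passed the filter only through the OSKA + 4OHT wells is not given here. Of 5 tested keratinocyte markers, 1 was called higher, *Krt6a*, at 1.94 to 2.67 TPM against 13.7 to 18.6 TPM, while the defining *Krt5* was at or below 2.89 TPM. In this list 2 were higher and 0 lower at an unadjusted p under 0.05 (limma-trend). Macrophage markers summed to 241 to 272 TPM in the OSKA − 4OHT group and to 154 to 179.9 TPM in the OSKA + 4OHT group. Of the 12 tested, 0 were called (0 higher and 2 lower at an unadjusted p under 0.05, limma-trend). The part of these cell types in the levels of the network genes was not tested.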

How the data were processed

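PolyA RNA of 3 OSKA + 4OHT and 3 OSKA − 4OHT wells was sequenced at 10 dpi. The authors trimmed the reads with Trim Galore, quantified them with Salmon and deposited 1 TPM value per gene and well, labelled scaled TPM; each well adds up to 1000000, so the values were read as TPM; versions and annotation release are not given in the sources used here. The authors' own fold change, average level, F statistic and p-value per gene were not used. Of the 54331 Ensembl identifiers, 54097 were given a symbol and a position from GENCODE M21 (GRCm38).

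TPM keeps no depth, so no count model was used. The fit was limma-trend (limma 3.58.1, R 4.3.3; tested on simulated data) on log2(TPM + 0.5) over the 15382 genes averaging 1 TPM or more, with no block. In the simulated data the fit called 25.5% of genes changed by a log2 of 1.5 and 51.6% of those changed by 3. A gene without a call may thus still have changed. Reads were approximated from TPM steps of genes with a single transcript over 600 bases, less an assumed fragment of 250 bases, and the longest transcript of each gene. The steps were not sharp, as 37.6% to 41.3% of low values lay within 0.15 of a whole read, against 30% for evenly spread values. For genes with an OSKA − 4OHT library at or under about 3 reads no fold is stated; their fitted log2 fold changes, which enter the plot and the medians, depend on the pseudocount. Similar transcripts (90% identity over 100 bases or more) were found with BLAST 2.17.0.

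The 39 genes and all lists were chosen with earlier results of these data known. Named are all 39 genes, the largest called rise and fall of each list, and protein-coding neighbors within 100 kb; some of these neighbors are not reported here. The alternatives were other pseudocounts, filters, scalings, a replicate block, no variance trend and leaving out each well.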

Additional observations from a re-analysis of the deposited data

How the results depend on the processing

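With all 6 wells, 9 of 26 tested network genes were called higher (2.87% of all genes) and 0 lower. The groups did not overlap in 24 of 39 genes, 23 of them higher and 1 lower in the OSKA + 4OHT group, against 13.2% and 7.02% of all genes. The median log2 fold change was 1.66, but 9 of the 26 genes passed the filter only through the OSKA + 4OHT wells, and over the 17 genes chosen without those wells it was 0.92. No network gene was called lower under any alternative run. The number called higher was 2 to 6 when a well was left out, which leaves fewer wells to the fit. It was 5, 6 and 5 without OSKA − 4OHT replicates 1, 2 and 3, when 1.72%, 1.46% and 1.99% of all genes were called higher. It was 2, 2 and 5 without OSKA + 4OHT replicates 1, 2 and 3, when 0.728%, 0.805% and 1.66% of all genes were. With the replicate block 2 genes were called, *Dppa5a* and *L1td1*, both at an adjusted p of 0.0499 (limma-trend), and 0.202% of all genes were. The numbers were not treated as pairs, because same-numbered wells correlated by only 0.0235, 0.0341 and 0.0837 in their deviations from the group means. A pseudocount of 2 gave a median of 1.15, and no filter on low genes gave 1.37 over 36 genes. With the filter raised to 5 TPM, 14 genes were tested and 6 were called (3.55% of all genes). In 12 of the 14 the groups did not overlap, all of them higher in the OSKA + 4OHT group (19.9% of all genes at this filter). However, *Sall1*, *Sall4*, *Dppa5a*, *Tdgf1*, *Gdf3* and *Lefty1* had an OSKA − 4OHT mean under 5 TPM. They passed this filter only through the OSKA + 4OHT wells and had to differ, so their part in these counts is no support. Of the called genes, *L1td1* and *Rif1* did not depend on those wells. Quantile normalization called 6 (2.18% of all genes) and put the median of all genes at -0.005, and trimmed mean scaling called 9 (2.48%) and put it at 0.06. Of the results for single genes under the alternatives, 299 kept their direction and their side of the threshold, 43 lost a call and 3 gained one. The other 2, *Zscan10* with a pseudocount of 0.1 and *Klf5* under quantile normalization, changed sign without ever being called. Network genes near 1 TPM rest on few reads.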

Other observations

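Other genes carried sequence close to that of the network genes. Under the limit of 90% identity over at least 100 bases, 17 of the 39 genes had such a relative. *Tmod3* and *Eprs*, which share 217 and 214 bases with the *Nanog* transcript, were at 51.4 to 70.0 TPM and 49.4 to 94.9 TPM over the 6 libraries. *Nanog-ps1* was listed at 0 in all of them. Reads of *Tdgf1* and *Tdgf1-ps1* cannot be fully told apart, and the latter was above 0 only in replicate 1 of each group, at 3.47 and 3.26 TPM.

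Germline genes, several of which are switched on beside the pluripotency network in other settings, were near or at 0. Of 16 genes, 7 were listed at 0 in every library, *Dazl* among them, and the summed level was 1.88 to 7.77 TPM in the OSKA − 4OHT group and 4.31 to 8.75 TPM in the OSKA + 4OHT group. Neural markers summed to 176 to 201 TPM and 165 to 198 TPM, and endothelial markers to 14.5 to 25.96 TPM and 31.9 to 42.1 TPM. Of the tested genes of these 3 lists none was called by limma-trend, with 0, 1 and 2 higher and 0 lower at an unadjusted p under 0.05. These genes were chosen with results of these data known.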
